A study of Homo sapiens with 4 samples.

Results

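The kinesin genes were taken as every gene of the count tables whose symbol is KIF followed by its number and an optional letter, together with KIFC1, KIFC2, KIFC3, the kinesin light chain genes KLC1, KLC2, KLC3 and KLC4, and KIFAP3, which encodes the protein that joins the kinesin-2 motor to its cargo. This rule found 47 of the 60623 genes in the tables, and it works on symbols alone. The members, their classes and all gene lists were, however, chosen with earlier results of these data known. They were divided by their known roles into 14 mitotic kinesins, 20 transport kinesins and 13 other kinesins. CENPE, the kinesin-7 motor of the kinetochore, does not carry such a symbol and is described separately among the partners of the mitotic motors.

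The libraries were labelled as BICR10, a human cell line of head and neck cancer, infected with lentivirus for a control hairpin (shControl) or for a hairpin against YEATS2 (shYEATS2), a chromatin reader protein, and selected with puromycin in both groups. Each group had 2 libraries of mRNA, and the comparison asks which genes change when YEATS2 is reduced. Which of the YEATS2 hairpins each library carried is not given in the sources used here. The study describes its replicates in general as biological, without saying how the cultures of these libraries were kept apart, and the p-values measure the spread between these libraries. In bulk RNA, fewer cells of one kind and less RNA per cell cannot be told apart.

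Levels are given as TMM-scaled CPM, the counts on a gene per 1e6 counts of the library total multiplied by its TMM factor. The targeted gene, YEATS2, was at 66.1 and 66.7 CPM in the shControl libraries and at 29.2 and 29.1 CPM in the shYEATS2 libraries. Its log2 fold change was −1.19 ± 0.08 (standard error of the edgeR fit, adjusted p = 3.55e-21). Depth was 47297970 and 39824898 counts on genes in shControl and 24072396 and 11334133 in shYEATS2, so that depth and group cannot be told apart. Over all tested genes, 23.6% were lower and 22.6% higher at an adjusted p under 0.05. Of 10 squamous epithelial markers, 8 passed the filter, with 4 lower, 2 higher and a median log2 fold change of −0.53. KRT6A fell from 55.0 and 58.2 to 1.38 and 2.21 CPM, KRT5 from a mean of 15.7 to a mean of 1.19 CPM and KRT14 from 1.23 and 1.19 to 0.276 and 0.170 CPM, whereas CDH1 rose from 0.353 and 0.318 to 2.84 and 2.12 CPM. The list summed to 310 to 329 CPM in shControl and 263 to 273 CPM in shYEATS2, most of it from SFN and PERP, which lay at 103 to 136 CPM in every library. The defining markers TP63 and KRT17 lay at 0.397 CPM or less in every library. Of 10 fibroblast markers, 9 passed the filter and 8 were lower, and the list summed to 7461 to 7547 CPM in shControl and 2289 to 2424 CPM in shYEATS2, with COL1A1 at 2845 and 2747 against 927 and 855 CPM. DCN, LUM and POSTN were also abundant, at 60.47 CPM or more in every library. THY1, the fibroblast marker that did not pass, lay at 0.287 CPM or less in every library. PDGFRA had a mean of 2.73 CPM in shControl and 0.816 CPM in shYEATS2, and FAP, at 10.6 to 13.8 CPM, was not called. TP63 and KRT17 near 0 and KRT14 and CDH1 at 2.84 CPM or less go against what is known of a squamous epithelial line. So do the abundant fibroblast collagens. With THY1 near 0, however, the fibroblast list was not complete either, and the cells are named here by their label. The endothelial list summed to 35.6 to 36.6 CPM in shControl and 18.9 to 20.2 CPM in shYEATS2, with its defining marker CDH5 at or near 0. Most of this sum was KDR, at 33.8 and 35.1 against 17.0 and 17.4 CPM. PECAM1 was not called, and TEK, at 0.594 CPM or less in every library, was called higher. The immune list summed to 1.79 CPM or less in every library, with CD3E and CD68 at 0. The part of these markers in the kinesin results was not tested.

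Kinesins are motor proteins that use ATP to move along microtubules or to take their ends apart. Mitotic kinesins build the spindle, move the chromosomes and set the plane of cell division, and the genes of many of them are transcribed mainly in G2 and mitosis. Transport kinesins carry vesicles, mitochondria, proteins and RNA through the cell between divisions, as dimers of heavy chains that bind cargo through light chains or adaptor proteins. A further set, here called other kinesins, works at cilia and in Hedgehog signalling, caps microtubules or has roles that fit neither class alone. KIF2A was placed here, although it belongs to kinesin-13 like the mitotic KIF2B and KIF2C, and the mitotic counts leave it out.

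Promoters of mitotic genes are known to share a short element, the CHR, to which the DREAM and MuvB complexes bind, and CCAAT boxes, which NF-Y binds. RefSeq promoters of 300 bases (250 before the start and 50 from the start on, GRCh38.p14) were given for 37 of the 47 kinesin genes, among them all 14 mitotic kinesins. They were searched on both strands for the CHR core (TTTGAA or TTCGAA), for CCAAT and for an E2F site (TTTGGCGC or TTTCGCGC). The windows below, each of at most 30 bases, show these letters in the mitotic kinesin genes that the results turn on, read along the gene, with the motif in capitals (TTCAAA and ATTGG are the CHR core and CCAAT on the other strand).
KIF14, CHR (chr1:200620734-200620761, minus strand): cggggcgcccaTTCAAAttgcggccttc
KIF18A, CHR (chr11:28108150-28108177, minus strand): agtggcttgggTTTGAAtattgtggttg
KIF4A, CHR (chrX:70290059-70290086, plus strand): tccgggacggaTTTGAAacttggcggtt
KIF4B, CHR (chr5:155013747-155013774, plus strand): tctgggagggaTTTGAAacttggcggtt
KIF20B, CHR (chr10:89701603-89701630, plus strand): ggccgccattgTTTGAAtttgaaaacgg
KIF23, CHR (chr15:69414283-69414310, plus strand): tgattggcccgTTTGAAatgcgccaggc
KIF15, CHR (chr3:44761748-44761775, plus strand): caagcgccaaaTTCAAAtttgcggccat
KIF11, CHR (chr10:92593091-92593118, plus strand): tctgtctctttTTCAAAttgaggcgccg
KIFC1, CHR (chr6:33391816-33391843, plus strand): ggccgttggaaTTCAAAagtggcgggtg
KIF22, CHR (chr16:29790713-29790740, plus strand): gcaccggggaaTTCGAAtgggagaggcg
KIF20A, CCAAT (chr5:138179034-138179060, plus strand): ttccctatctgATTGGccgaacgaacg

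The CHR core was present in 11 of the 14 mitotic kinesin promoters (78.6%), against 16.6% of 27305 RefSeq promoters of the same length. A CCAAT box was present in 11 (78.6%, against 35.7% of all promoters), both elements in 10 (71.4%, against 6.58%) and the E2F letters in 1, that of KIF15 (7.14%, against 1.18%). The CHR matches began between −55 and +31 from the start base, whereas the CCAAT matches lay between −202 and −21, and no CHR match overlapped a CCAAT or E2F match. The KIF20B window holds a second copy of the CHR core, in lower case, directly after the first. The windows of KIF4A and its near-identical retrocopy KIF4B share the match and the bases after it, and differ in part of the bases before it. Of the 7 mitotic kinesins that rose in shYEATS2, 5 hold the CHR letters, and KIF2C and KIF20A do not. All 5 tested mitotic kinesins that were not called hold them as well. A CCAAT box is held by 6 of the 7 that rose, KIF20A among them, and by 4 of the 5 not called. KIF2C, which had the largest rise of the class, holds none of the letters searched for. A match is a description of the letters and not a measured binding site. Only 14 of 20 transport and 9 of 13 other kinesins had a promoter sequence, under the 80% required for a comparison, so their counts are not compared with those of the mitotic kinesins.

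**Figure D1:**
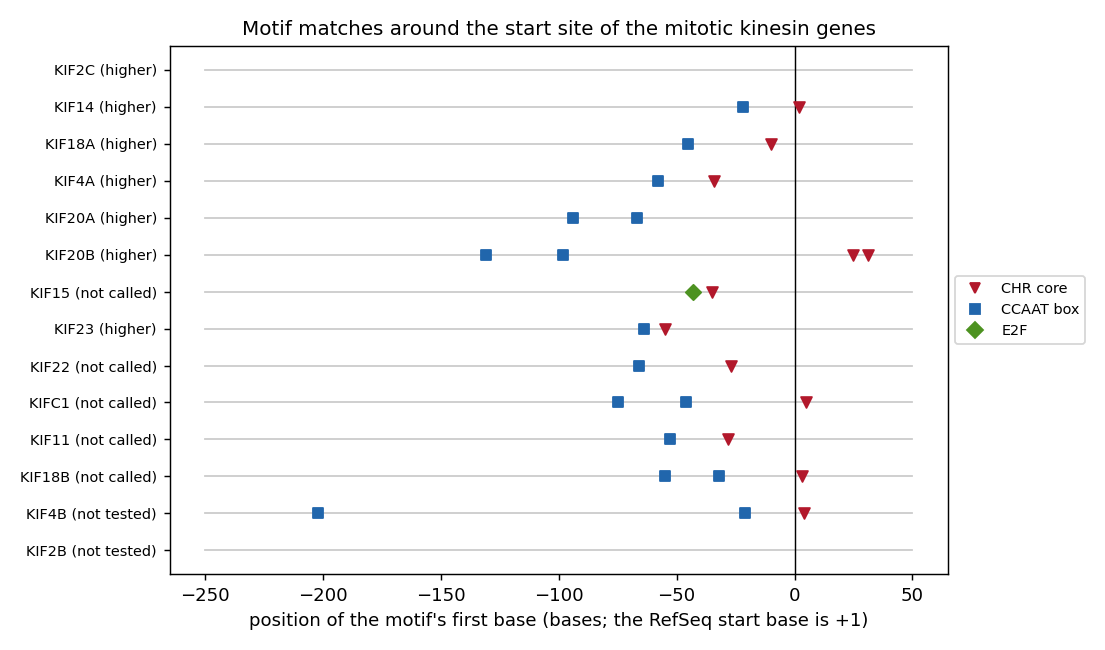
Each row is the 300-base RefSeq promoter of 1 mitotic kinesin gene, with its call in shYEATS2 against shControl, and the horizontal axis gives the position of the first base of each match in bases from the start site. CHR cores (triangles) lie between −55 and +31 and CCAAT boxes (squares) between −202 and −21. Both ends of the CCAAT range belong to KIF4B, which was not tested. Both elements occur in genes that rose and in genes that were not called.

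Of the 47 kinesin genes, 40 passed the filter on low counts and were tested. The filter (edgeR filterByExpr, about 0.313 CPM in 2 libraries) used CPM of the plain library totals, without the TMM factor. The 7 that did not pass were KIF2B and KIF19, with 0 counts in every library (which allows up to 0.0634 CPM in the deepest library and 0.265 CPM in the shallowest, at 3 counts of the total, for counting error only), and KIF4B, KIF1A, KIF6, KIF12 and KIF25, with 9 counts or fewer in any library. KIF5A passed through the shYEATS2 libraries alone, and KIF17 was under 0.313 CPM in 1 shControl library. The levels of the tested members spanned over 3 orders of magnitude, as the plot of levels shows. Per kilobase of the canonical transcript, the median shControl level was 16.7 CPM for the 12 tested mitotic kinesins (range 5.43 to 30.4), 6.78 for the 19 tested transport kinesins (0.0481 to 46.6) and 1.93 for the 9 tested other kinesins (0.0439 to 6.21), beside 7.33 for all 12928 tested protein-coding genes. The most abundant kinesin per kilobase was KIF5B, the widely expressed heavy chain of kinesin-1 (46.6), followed by KIF23 (30.4), a motor of the spindle midzone, and KIF22 (25.8), a motor that binds chromosome arms.

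**Figure D2:**
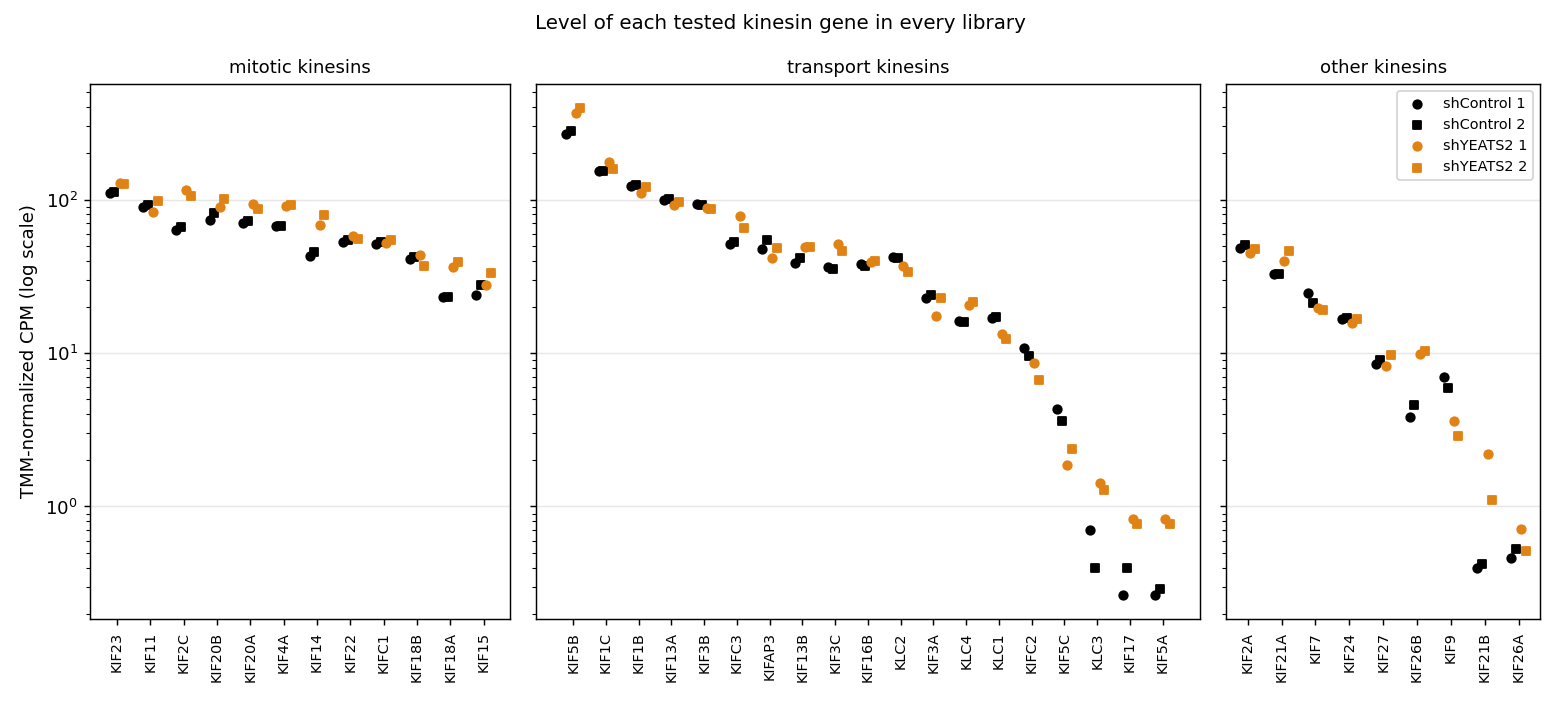
TMM-normalized CPM (log axis) of the 40 tested kinesin genes, 1 point per library, with shControl in black and shYEATS2 in orange, sorted by level within each class. The mitotic kinesins lie within 23.1 to 128 CPM, and the transport kinesins reach from KIF5B at 267 to 395 CPM down to KIF17 and KIF5A at under 1 CPM.

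In shYEATS2 against shControl, 26 of the 40 tested kinesin genes passed an adjusted p under 0.05 in edgeR's quasi-likelihood test, 18 of them higher and 8 lower. Over all 17058 tested genes, 46.2% passed, with 22.6% higher and 23.6% lower. All called mitotic kinesins were higher, 7 of 12 (58.3%) against 0 lower. The transport kinesins, in contrast, were divided, with 8 of 19 higher (42.1%) and 6 lower (31.6%). Without KIF5A, which passed the filter through the shYEATS2 libraries alone, 7 of 18 were higher (38.9%) and 6 lower (33.3%). Of the 9 other kinesins, 3 were higher and 2 lower. The transport counts depended on single libraries and on the tool, with 5 higher when shControl replicate 1, shControl replicate 2 or shYEATS2 replicate 1 was left out, 3 lower without either shControl library, and 5 higher and 2 lower with DESeq2. The count of 0 lower mitotic kinesins was also 0 at an unadjusted p under 0.05, with DESeq2 and with limma-voom. Both shYEATS2 libraries lay above both shControl libraries for 8 of 12 mitotic and 10 of 19 transport kinesins (35.3% of all tested genes), and below them for 0 and 7 (36.3% of all tested genes). The median of all tested genes was at −0.01 on the log2 scale, and it moved to 0.13 when libraries were scaled by their totals alone. Under that scaling the calls were 9 higher and 0 lower among mitotic, 10 and 2 among transport and 3 and 1 among other kinesins.

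**Figure D3:**
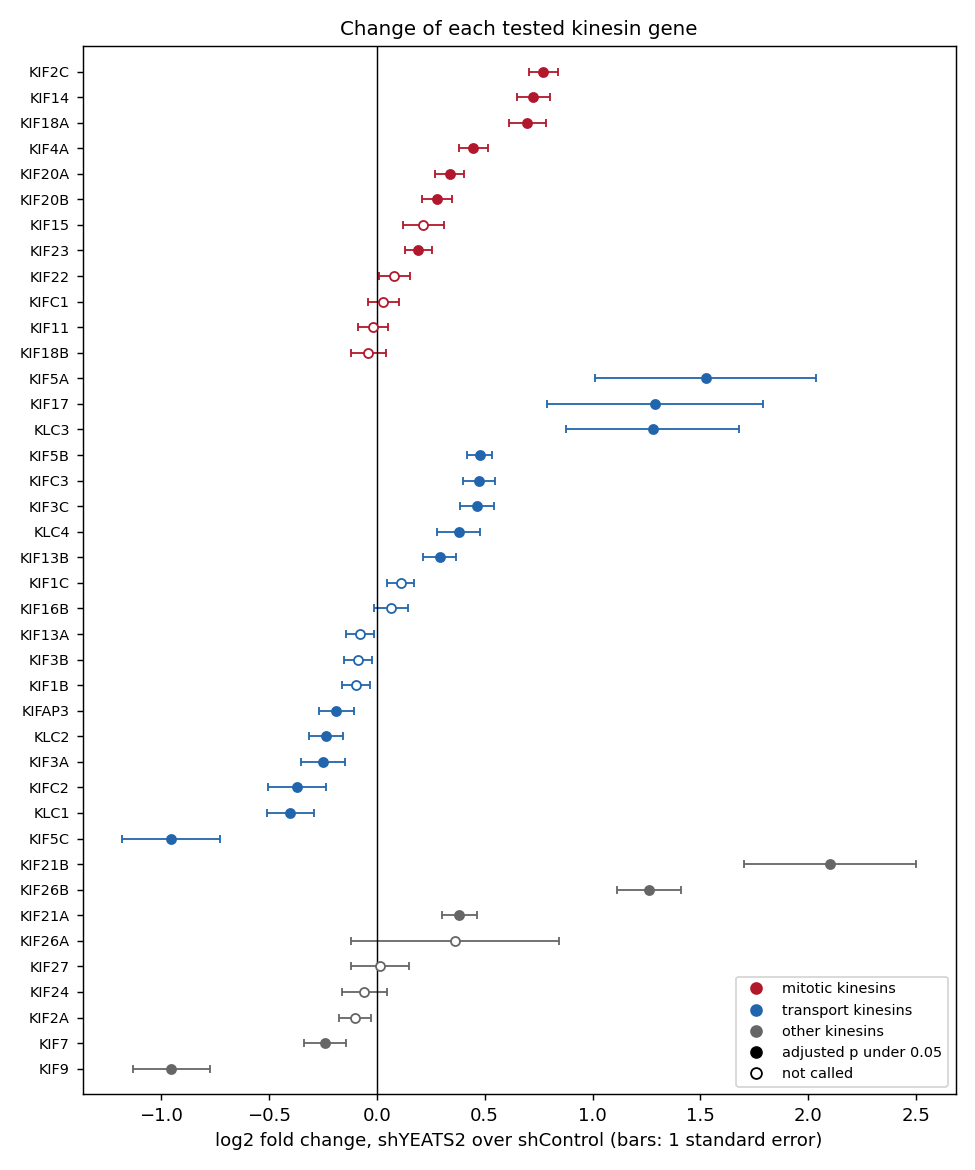
Log2 fold change of shYEATS2 over shControl for the 40 tested kinesin genes, with bars of 1 standard error of the edgeR fit, filled where the adjusted p was under 0.05. Mitotic kinesins (red) run from −0.04 to 0.77 with 7 filled points, all above 0, and transport kinesins (blue) from −0.95 to 1.52 with filled points on both sides.

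Among the mitotic kinesins, the largest change was that of KIF2C (MCAK, chr1:44739818-44767767), which takes microtubule ends apart at the centromere and corrects wrong attachments. Its level was 63.4 and 66.0 CPM in shControl and 115 and 105 CPM in shYEATS2, a 1.71-fold rise (log2 0.77 ± 0.07, adjusted p = 9.34e-16). KIF14 (chr1:200551497-200620751), which recruits citron kinase to the midbody, followed with 42.7 and 45.8 CPM against 68.1 and 79.7 CPM (log2 0.73 ± 0.07, adjusted p = 1.0e-12). KIF18A (chr11:28020619-28108156) dampens the movements of chromosomes at the metaphase plate. It was at 23.1 and 23.3 CPM in shControl and 36.6 and 39.1 CPM in shYEATS2 (log2 0.70 ± 0.09, adjusted p = 2.12e-10). In all 3 genes the groups were far apart, and the call was kept under all 14 alternative settings.

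KIF4A (chrX:70290104-70420886), a chromokinesin that also sets the length of the midzone with PRC1, rose from 67.2 and 67.0 CPM to 91.1 and 92.0 CPM (log2 0.45 ± 0.07, adjusted p = 5.23e-08). KIF4B, its near-identical copy, had only 9, 4, 2 and 1 counts, and how the counting divided reads that fit both genes is not known, so the level of KIF4A is uncertain by that share. The kinesin-6 motors act at the midzone and the midbody during cytokinesis, and all 3 of them rose. KIF20A (MKLP2), which brings Aurora B to the midzone, was at 69.9 and 73.0 CPM in shControl and 93.0 and 87.0 CPM in shYEATS2 (log2 0.34 ± 0.07, adjusted p = 2.23e-05). KIF20B was at 74.0 and 82.0 against 88.9 and 101 CPM (log2 0.28 ± 0.07, adjusted p = 0.000676). KIF23 (MKLP1), the motor subunit of the centralspindlin complex, was at 111 and 112 against 128 and 126 CPM (log2 0.19 ± 0.06, adjusted p = 0.0095). These last 2 changes were small beside those of KIF2C, KIF14 and KIF18A. Without shControl replicate 1 neither KIF20B nor KIF23 passed, which left 5 mitotic kinesins called, and KIF23 did not pass without shControl replicate 2 or without the filter either.

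The 5 mitotic kinesins that did not pass included KIF11 (Eg5), the motor that pushes the spindle poles apart and the target of anti-mitotic inhibitors. KIF11 was at 89.8 and 91.7 CPM in shControl and 83.0 and 98.2 CPM in shYEATS2 (log2 −0.02 ± 0.07, adjusted p = 0.878), with the shControl libraries between the shYEATS2 ones. It was called lower only without shYEATS2 replicate 2 (log2 −0.13, adjusted p = 0.0488), and lay at 0.10 without shYEATS2 replicate 1. KIF15, which can stand in for KIF11 at the spindle, was at 23.9 and 27.8 against 27.6 and 33.3 CPM (log2 0.22 ± 0.09, adjusted p = 0.0524). Its groups overlapped, and it passed under 7 of the 14 alternatives. KIF22 (log2 0.08 ± 0.07), KIFC1 (0.03 ± 0.07), a minus-end motor that gathers the spindle poles, and KIF18B (−0.04 ± 0.08), which acts at the ends of astral microtubules, had changes of about 1 standard error or less. KIF18A, the kinesin-8 relative of KIF18B, was among the genes that rose, and the difference between them was not tested. The sign of KIF11 and KIF18B was positive with library totals (0.12 and 0.10), and that of KIFC1 negative without the filter (−0.02).

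Proteins that work with the mitotic kinesins were given by a list of 20 spindle and midzone genes, of which 19 were tested. Of these, 13 were higher (68.4%, against 22.6% of all tested genes) and 2 lower (10.5%, against 23.6%). The list's median log2 fold change was 0.50. Without CENPE, the kinesin-7 motor, the list had 12 higher (66.7%) and 2 lower (11.1%) of 18, with a median of 0.47. AURKA, the kinase of the spindle poles, was at 54.3 and 57.4 CPM in shControl and 101 and 106 CPM in shYEATS2 (log2 0.88 ± 0.07, adjusted p = 4.08e-18). CENPE was at 54.4 and 57.5 against 91.0 and 109 CPM (log2 0.83 ± 0.07), and PLK1, a kinase of mitotic entry and spindle assembly, at 89.0 and 96.0 against 147 and 148 CPM (log2 0.67 ± 0.06). NUMA1, which anchors dynein at the poles, fell by 0.47 on the log2 scale, from 183 and 181 to 134 and 127 CPM. PRC1, the midzone partner of KIF4A, was not tested, at 0.255 to 0.529 CPM in the 4 libraries. How the counting treated its reads is not known, and whether this level reflects its expression was not tested. The S phase list, by contrast, had 0 of 20 genes higher (0 at an unadjusted p under 0.05, 0 with DESeq2 and 0 with limma-voom). It had 17 lower (85%, against 23.6% of all tested genes), with a median of −0.48. MCM5 fell by 0.97, MCM2 by 0.81 and MCM3 by 0.75 on the log2 scale, all members of the helicase that opens replication origins. The summed level of the S phase list was 2135 and 2187 CPM in shControl and 1554 and 1488 CPM in shYEATS2. These lists moved with the group beside the mitotic kinesins, and their part in the kinesin changes was not tested.

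**Figure D4:**
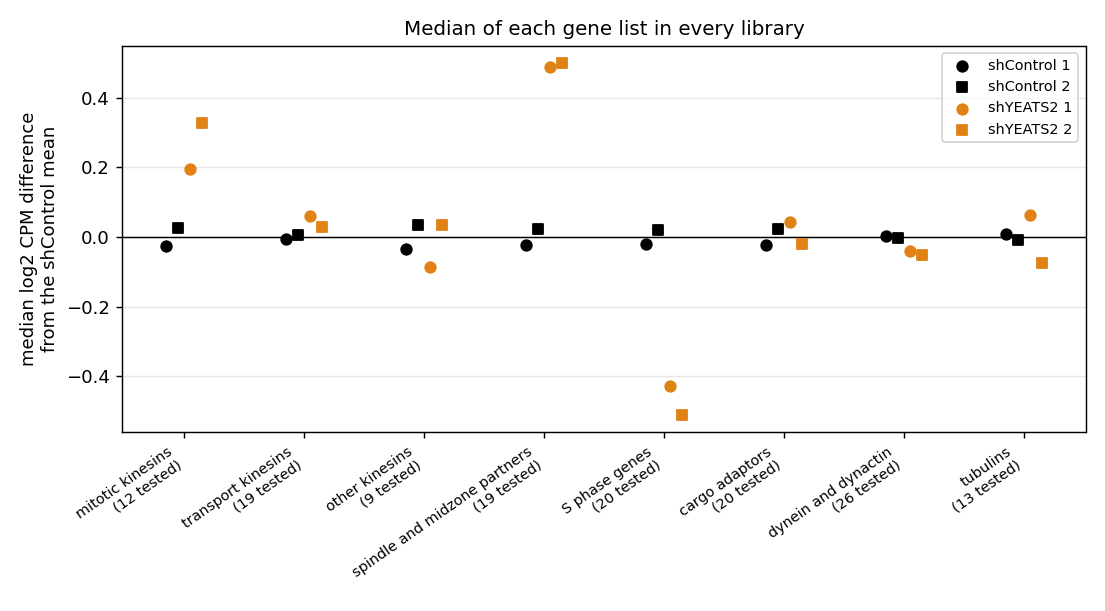
Median over the tested genes of each list of the difference in log2 CPM from the shControl mean, 1 point per library. Both shYEATS2 libraries lie above both shControl libraries for the mitotic kinesins (0.20 and 0.33) and the spindle partners (0.49 and 0.50). They lie below them for the S phase genes (−0.43 and −0.51). For the transport kinesins they also lie above, by little (0.060 and 0.029). Without KIF5A the transport values in shYEATS2 are −0.0054 and 0.0031.

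Kinesin-1, the main motor of outward transport, consists of 2 heavy chains (KIF5A, KIF5B or KIF5C) and 2 light chains (KLC1 to KLC4) that recognise cargo. KIF5B (chr10:32009015-32056425) had the highest mean level per kilobase of all kinesins in both groups (46.6 in shControl and 64.9 in shYEATS2). Its CPM were 267 and 279.5 CPM in shControl and 367 and 395 CPM in shYEATS2 (log2 0.48 ± 0.06, adjusted p = 3.22e-10). KIF5C (chr2:148875227-149026759), a heavy chain best known from neurons, went the other way, from 4.30 and 3.60 CPM to 1.86 and 2.38 CPM (log2 −0.95 ± 0.23, adjusted p = 0.00034). Both calls were kept under all 14 alternatives, and the groups did not overlap for either gene. Per kilobase, KIF5B exceeded KIF5C 73.7-fold and 92.1-fold in the shControl libraries and 235-fold and 197-fold in the shYEATS2 libraries. KIF5A, the neuronal heavy chain, was near the limit of detection, with 12 and 11 counts in shControl and 21 and 9 in shYEATS2 (0.265, 0.291, 0.829 and 0.764 CPM).

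The light chains were divided as well, 2 higher and 2 lower. KLC4 (chr6:43040777-43075095) rose from 16.2 and 15.9 CPM to 20.4 and 21.4 CPM (log2 0.38 ± 0.10, adjusted p = 0.00117). KLC1 (chr14:103561896-103714249) fell from 17.0 and 17.1 CPM to 13.3 and 12.3 CPM (log2 −0.40 ± 0.11, adjusted p = 0.00158), and KLC2 from 42.0 and 41.5 CPM to 36.7 and 33.8 CPM (log2 −0.24 ± 0.08, adjusted p = 0.012). The ratio of KLC4 to KLC1 per kilobase was 1.03 and 0.998 in shControl and 1.66 and 1.88 in shYEATS2, so that light chains at a like level in shControl stood apart in shYEATS2. KLC2 was the light chain with the highest level per kilobase (14.1 in shControl). Its ratio to KLC1 was 2.14 and 2.09 in shControl and 2.37 and 2.37 in shYEATS2, a smaller shift than that of KLC4. The calls of KLC1 and KLC4 were kept under all 14 alternatives, while KLC2 lost its call under 5, among them DESeq2, library totals and leaving out either shControl library. KLC1 shares 29.9% of its exon bases with XRCC3 on the opposite strand, and the strand setting of the counting is not given in the sources used here; XRCC3 itself had a log2 fold change of −0.001 (adjusted p = 0.994). KLC3, a light chain known from sperm tails, had 32 and 15 counts in shControl and 36 and 15 in shYEATS2. It shares 14.6% of its exon bases with ERCC2 on the other strand, which rose by 0.50 on the log2 scale.

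Kinesin-2 pairs KIF3A with KIF3B or KIF3C, bound to KIFAP3, and serves the cilium and vesicle transport, and KIF17 forms a motor of its own in this family. KIF3C rose from 36.2 and 35.2 CPM to 51.6 and 46.2 CPM (log2 0.46 ± 0.08, adjusted p = 9.21e-07), a call kept under all 14 alternatives. KIF3A was at 22.7 and 23.8 against 17.4 and 22.7 CPM (log2 −0.25 ± 0.10, adjusted p = 0.0382), and KIFAP3 at 47.4 and 54.2 against 41.8 and 48.4 CPM (log2 −0.19 ± 0.08, adjusted p = 0.0494). The groups of both genes overlapped in the libraries, and each lost its call under 8 of the 14 alternatives. KIF3B, the usual partner of KIF3A, was at 94.0 and 92.2 against 88.6 and 86.5 CPM and was not called (log2 −0.09 ± 0.07, adjusted p = 0.287). The ratio of KIF3C to KIF3A per kilobase was 1.88 and 1.75 in shControl and 3.51 and 2.40 in shYEATS2.

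Of the kinesin-3 transporters, which carry endosomes, lysosomes, mitochondria and dense-core vesicles, KIF13B alone passed the test, at 38.8 and 41.4 CPM in shControl and 49.0 and 49.1 CPM in shYEATS2 (log2 0.29 ± 0.08, adjusted p = 0.00112; not called without shControl replicate 1). KIF1C (log2 0.11 ± 0.06), KIF16B (0.07 ± 0.08), KIF13A (−0.08 ± 0.07) and KIF1B (−0.09 ± 0.06) did not pass. Of these, KIF1C was at 154 to 175 CPM and KIF1B at 110.4 to 124 CPM, well above the levels at which other members were called. The sign of KIF1B, KIF3B and KIF13A turned positive with library totals. The minus-end motors of kinesin-14 diverged. KIFC3 (chr16:57758217-57863053), which acts at cell junctions and the Golgi, rose from 51.3 and 52.8 CPM to 77.7 and 65.4 CPM (log2 0.47 ± 0.07, adjusted p = 1.64e-07), kept under all 14 alternatives. KIFC2 was at 10.8 and 9.55 against 8.61 and 6.70 CPM (log2 −0.37 ± 0.13, adjusted p = 0.0187), and lost its call under 5 alternatives, among them DESeq2, library totals, and leaving out shControl replicate 1 or shYEATS2 replicate 2.

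KIF5A, KIF17 and KLC3, which are 3 of the 8 higher transport kinesins, rested on few reads, with at most 36 counts in any library. KIF17 had 12 and 15 counts in shControl and 21 and 9 in shYEATS2, and its fitted log2 fold change of 1.29 ± 0.50 (adjusted p = 0.0287), like those of KLC3 (1.28 ± 0.40, adjusted p = 0.00639) and KIF5A (1.52 ± 0.51, adjusted p = 0.0114), carried the largest errors of the class. None of the 3 passed with DESeq2, nor without shControl replicate 2 or without shYEATS2 replicate 1. Counting only the 16 transport kinesins with a mean of at least 1 CPM, a subset chosen after the values were seen, 5 were higher and 6 lower, with a median log2 fold change of −0.08. Leaving out KIF5A alone gave 7 higher and 6 lower of 18, with a median of −0.01.

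Of 20 cargo adaptors, 4 were higher (20%) and 5 lower (25%), with a median of 0.02, shares near those over all tested genes (22.6% and 23.6%). FEZ1, an adaptor of kinesin-1, rose from 8.69 and 8.42 CPM to 17.8 and 13.8 CPM (log2 0.92 ± 0.12). MAPK8IP3 (JIP3), which links kinesin-1 to vesicles, fell by 0.52 on the log2 scale, and RHOT2 (Miro2), which links mitochondria to their motors, by 0.46. Dynein and dynactin, the motor of inward transport and its activator, had 7 higher (26.9%) and 8 lower (30.8%) of 26 tested genes, with a median of −0.06, not far from the same shares. There DCTN5 rose by 0.77 ± 0.07 and NDE1 by 0.51 ± 0.08, while ACTR1B fell by 0.54 on the log2 scale. Of 13 tested tubulins, the tracks of all these motors, 4 were higher (30.8%) and 1 lower (7.69%), with a median of −0.02. TUBA1A (log2 0.59 ± 0.08) and TUBA1B (0.28 ± 0.06) were higher and TUBB4B was lower (−0.28 ± 0.06). The medians of dynein and tubulins turned positive with library totals (0.08 and 0.11).

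Among the other kinesins, 5 of 9 tested genes passed (46.2% of all tested genes did), most of them at low levels. KIF26B (chr1:245154985-245709432), a kinesin-11 protein tied to non-canonical Wnt signalling and thought not to move along microtubules, rose from 3.81 and 4.60 CPM to 9.91 and 10.3 CPM (log2 1.26 ± 0.15, adjusted p = 8.79e-11), with the groups far apart and the call kept under all 14 alternatives. Its relative KIF26A, at 0.463 and 0.529 against 0.711 and 0.509 CPM, was not called (log2 0.36 ± 0.48, adjusted p = 0.569). KIF21A, a kinesin-4 that halts microtubule growth at the cell cortex, rose from 32.6 CPM in both shControl libraries to 40.0 and 46.0 CPM (log2 0.38 ± 0.08, adjusted p = 6.89e-05). KIF21B, the related motor of neurons and lymphocytes, had 18 and 16 counts in shControl and 56 and 13 in shYEATS2 (0.397, 0.423, 2.21 and 1.10 CPM). Its fitted log2 fold change of 2.10 ± 0.40 (adjusted p = 9.32e-06) was the largest of all kinesins, and the call was lost without shYEATS2 replicate 1, where the value was 1.41.

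KIF9 (chr3:47227998-47283451), a kinesin-9 of motile cilia and flagella, fell from 6.94 and 5.93 CPM to 3.59 and 2.88 CPM (log2 −0.95 ± 0.18, adjusted p = 7.13e-06), a call kept under all 14 alternatives. Of its exon bases 14.8% lie opposite KIF9-AS1, which was not called (log2 0.28, adjusted p = 0.258). KIF7, the kinesin-4 that organises the tip of the primary cilium for Hedgehog signalling, was at 24.6 and 21.3 against 19.8 and 19.1 CPM (log2 −0.24 ± 0.10, adjusted p = 0.0398). That call was lost under 8 of the 14 alternatives, among them DESeq2, limma-voom and leaving out shControl replicate 1 or shYEATS2 replicate 2, and KIF7 shares 10.8% of its exon bases with TICRR on the other strand, which fell by 0.48 on the log2 scale. KIF2A (log2 −0.10 ± 0.08), KIF24 (−0.06 ± 0.10) and KIF27 (0.02 ± 0.13) were not called. Within kinesin-13, the family of microtubule depolymerases, KIF2C rose while KIF2A and KIF24 did not pass the test, and both of these turned positive with library totals (0.034 and 0.077). KIF2A shares 18.7% of its exon bases with DIMT1 on the other strand, which fell by 0.70 on the log2 scale. Per kilobase, KIF2C exceeded KIF2A 3.67-fold and 3.62-fold in shControl and 7.14-fold and 6.10-fold in shYEATS2.

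Set side by side, the mitotic kinesins had a median log2 fold change of 0.25 (quartiles 0.07 and 0.51), the transport kinesins of 0.07 (−0.21 and 0.47) and all tested genes of −0.01 (−0.31 and 0.32). The positive transport median rested on KIF5A, which passed the filter through shYEATS2 alone, and was −0.01 without it. Among transport members with a mean of at least 1 CPM it was −0.08. The 4 pairs of 1 shYEATS2 and 1 shControl library gave medians of 0.16 to 0.38 for the mitotic and 0.03 to 0.08 for the transport kinesins. The medians differed by 0.18, and by 0.11 to 0.36 under the alternatives, with the mitotic median the higher in each. It was 0.30 when shControl replicate 2 or shYEATS2 replicate 1 was left out, and 0.33 among members with a mean of at least 1 CPM. Members are not replicates of a condition, so no test was made over them. The classes were also chosen with earlier results of these data known. Mitotic kinesins summed to 710.0 and 738 CPM in shControl and 885 and 908 CPM in shYEATS2, and transport kinesins to 1063 and 1083 against 1194 and 1207 CPM. Of the transport sum, KIF5B alone took 267 and 279.5 CPM in shControl and 367 and 395 CPM in shYEATS2. As a share of all kinesin CPM, the mitotic class took 37.1% and 37.6% in shControl and 39.8% and 40.0% in shYEATS2, and the transport class 55.5% and 55.2% against 53.7% and 53.2%. Per kilobase, the mitotic share was 47.3% and 47.7% against 50.2% and 50.2%. The shares did not overlap between the groups, and the smallest two-sided p that an exact permutation test allows for 2 libraries against 2 is 0.333. Of the 26 called kinesin genes, 14 kept their call under every alternative and 0 changed sign.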

How the data were processed

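RNA-seq counts per Ensembl gene, which the authors deposited as whole numbers without normalization, were used for 4 libraries of BICR10 cells (2 shControl, 2 shYEATS2). Per the labels and the methods of the study, stranded mRNA libraries were sequenced as pairs of 150 bp reads, aligned to GRCh38 with STAR and counted with HTSeq; the STAR version, annotation release and strand setting are not given in the sources used here. All special tallies of reads that the counting did not assign to a gene (15.3% to 16.5%) were left out.

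Of 60623 genes, 60295 had an identifier in GENCODE 44, which gave positions, overlaps and the length of the Ensembl canonical transcript. Genes passing filterByExpr (17058) were TMM-scaled and tested with edgeR 4.0.16 (quasi-likelihood, robust) in R 4.3.3. Calls were made at an adjusted p under 0.05, with the Benjamini-Hochberg method over all tested genes. Standard errors were the absolute log2 fold change divided by the square root of F. The common biological coefficient of variation was 4.95%, and replicates differed beyond counting noise (chi-square per degree of freedom 5.95 and 5.39).

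Alternative settings were a scaling by library totals, upper quartiles or DESeq2's size factors, a fit with all genes or with only those of 10 or more counts in each library, limma-voom (limma 3.58.1) or DESeq2 1.42.0 as the test, a replicate block, thinning to 11334133 counts per library, an adjusted p under 0.01, and the removal of each library in turn. Subsets by level were added after the values were seen.

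The members, their classes and all gene lists were chosen with earlier results of these data known. Every tested member may be named, those under the filter with raw counts, and of each other list the 3 called genes of largest change whose mean is 10 CPM or more and whose groups do not overlap, beside YEATS2 and CENPE. PRC1, NUMA1, the cell type markers and genes overlapping a member were named outside this rule. Protein sequences were not analysed here.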

Additional observations from a re-analysis of the deposited data

How the results depend on the processing

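Over 40 tested kinesin genes and 14 settings, 467 values kept their direction and side of the threshold, 56 lost the call in the same direction, 13 gained one and 18 turned sign, all 18 in genes that were not called; KIF5A, KIF17 and KIF26A gave no value in 2 of the settings. With library totals alone, 2567 genes were lower (4019 with TMM) and 5441 higher (3857), and 2 transport and 1 other kinesin were lower; the medians were 0.38 for mitotic, 0.20 for transport and 0.15 for other kinesins, 0.63 for spindle partners, 0.15 for cargo adaptors, 0.077 for dynein and dynactin, 0.11 for tubulins and −0.35 for S phase genes. The same scaling turned KIF18B (0.096), KIF11 (0.12), KIF2A (0.034), KIF24 (0.077), KIF1B (0.039), KIF3B (0.047) and KIF13A (0.055). DESeq2 called 2820 genes higher and 2949 lower, with 5 transport kinesins higher and 2 lower and 1 other kinesin lower. Other kinesins lower were 1 with upper quartiles, limma-voom, thinned counts and an adjusted p under 0.01, which left 2 transport kinesins lower. Limma-voom gave −9.68e-05 for KIF27, the median of the other kinesins. Without the filter, the medians were 0.041 for transport kinesins, 0.42 for spindle partners and −0.028 for cargo adaptors, and KIFC1 was at −0.017 and KIF27 at −0.033. With at least 10 counts in every library, the medians were −0.079 for transport and −0.021 for other kinesins, and mitotic exceeded transport by 0.33. With thinned counts, 5 transport kinesins were higher, the medians were −0.056 for transport kinesins, 0.43 for spindle partners and 0.015 for tubulins, mitotic exceeded transport by 0.36, and KIF11 (0.053), KIFC1 (−0.063) and KIF24 (0.045) turned. Among members with a mean of at least 1 CPM, chosen after seeing the data, 5 transport kinesins were higher, with medians of −0.083 for transport and −0.021 for other kinesins and a difference of 0.33; among those passing the filter in shControl the transport median was −0.0062.

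Leaving out 1 library in turn (with 1 library left in a group, it is assumed to vary like the others) gave 2604 to 3677 genes higher and 3062 to 4051 lower over all genes. Mitotic kinesins were 5 to 8 higher and 0 to 1 lower, transport kinesins 5 to 8 higher and 3 to 6 lower, and other kinesins 1 to 2 lower. The medians ran from 0.015 to 0.084 for transport and −0.025 to 0.10 for other kinesins, 0.39 to 0.45 for spindle partners, −0.044 to 0.083 for cargo adaptors and −0.089 to 0.040 for tubulins, and the difference of medians from 0.11 to 0.30. The 1 mitotic kinesin lower was KIF11, at −0.13 without shYEATS2 replicate 2 (adjusted p = 0.0488) and at 0.10 without shYEATS2 replicate 1. Over these fits KIF18B ranged from −0.20 to 0.053 and KIFC1 from −0.0017 to 0.052, and KIF27 reached −0.025 and −0.092. The causes were not tested.

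By the labels, libraries share only a number across groups. Over genes, the replicate differences of the groups did not go together (correlation −0.018). With 2 libraries per group, this value cannot show whether libraries of the same number were prepared together. With the replicate block, 3870 genes were higher and 4142 lower, with 8 mitotic kinesins higher (KIF15 was added), 8 transport kinesins higher and 6 lower, and 3 and 2 other kinesins. Depth limits KIF5A, KIF17 and KLC3, which had at most 36 counts in any library.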
